A study of Mus musculus with 16 samples.

Results

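The right neocortex of mice whose left cortex had been aspirated as neonates was compared with that of control mice of the same age, 1 week after the operation. The operated group, labelled NBI 1W and here called NBH 1 week (neonatal brain hemisuction), had an area of the left cerebral cortex that included the sensorimotor cortex removed by suction at P7 and was sampled at P14. The control group, labelled NC P14, was sampled at the same age, and a sham operation is not described for it. Both were C57BL/6J mice, and the tissue was the part of the right, unlesioned neocortex that lies rostral of bregma. According to the methods, 4 male animals were pooled for each group, so each side of the comparison is 1 RNA pool without a biological replicate. Every pool went on 1 Cy3 and 1 Cy5 array, so 4 of the 16 arrays of the series are used here. Every array of a control lay in row 1 of its chip and every array of an operated group in row 2, so surgery cannot be told apart from position on the chip.

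Suction of the cortex on 1 side leaves the opposite hemisphere to send new or spared projections to the side of the body that lost its input, and this is known to be more effective after injury in early life than after injury in the adult. At this age the mouse cortex is still building synapses and myelin, and its microglia and astrocytes are still maturing. The tissue next to the neocortex includes the striatum below it and the choroid plexus, an epithelium in the ventricles that secretes cerebrospinal fluid.

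Levels are given as normalized log2 levels, that is, the log2 of the spot signal minus the 75th percentile of its array, so that 0 is the level of the 75th percentile itself. Differences are the level in NBH 1 week minus the level in control P14, taken between the arrays of the same dye. A gene was called higher or lower when the difference was at least 1.5-fold with both dyes. Where a gene was well above background in 1 pool alone, the level of the other was set to the dimmest signal that counted as above background on its array, or to its own signal where that was brighter, and the fold is then written as a lower bound with the words at least. Because both dyes measure the same RNA, their spread is technical only, and p-values are not given. Uncalled members of the gene lists beyond the first 3 of each list, and all genes outside the lists other than those with the largest differences, were chosen for mention after their values were seen.

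Of 20140 named genes, 15300 could be compared. A total of 139 genes (0.908%) were called higher and 67 (0.438%) lower in NBH 1 week. Of the higher genes 58 were well above background on all 4 arrays and 81 were bounds, and of the lower genes 48 were measured and 19 were bounds. For comparison, 27 genes (0.176%) were higher by this limit with 1 dye and lower with the other. The log2 differences of the dyes correlated with r = 0.25 over these genes, which share arrays and are not independent replicates, and the dyes differed with an SD of 0.40. Most calls came from dim genes, since 130 of the 139 higher genes (93.5%) and 47 of the 67 lower genes (70.1%) belonged to the 3825 dimmest genes of control P14, the first of 4 equal groups by level. The median difference moved with brightness, from 0.12 in the dimmest to −0.01 in the brightest group with Cy3 and from 0.00 to 0.20 with Cy5. After the scaling the 10 E1A control probes still differed by a median of −0.40 with Cy3 and 0.22 with Cy5. Of 96 ERCC control probes 7 were above background with Cy3 and 9 with Cy5, with medians of −0.07 and −0.33. Small list medians are therefore within the error of the scaling. With the median signal and a normexp background correction in place of the processed signal, which draws dim values together, 62 genes were higher and 16 lower.

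**Figure D1:**
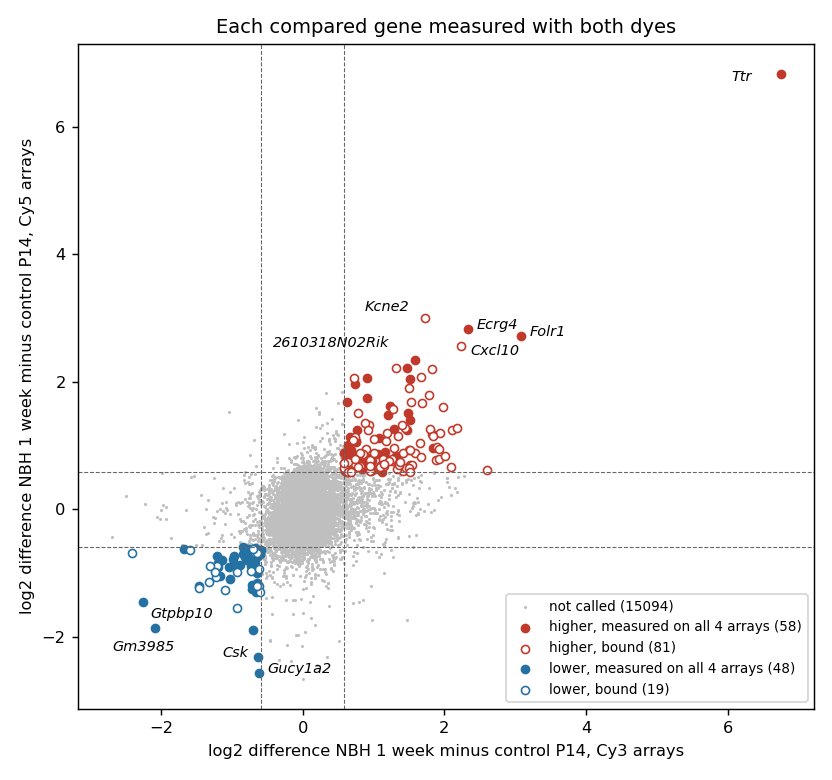
Log2 difference of each compared gene between NBH 1 week and control P14 on the Cy3 arrays (x axis) and on the Cy5 arrays (y axis), with dashed lines at 1.5-fold. Filled points were well above background on all 4 arrays and open points are bounds. Ttr stands alone at the upper right, and Gucy1a2 and Csk passed the limit narrowly with Cy3 and widely with Cy5.

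The tissue carried the markers of neocortex in both pools. All 10 neocortical marker genes were well above background on all 4 arrays, among them Slc17a7, Neurod6 and Tbr1 of excitatory neurons, and their differences lay between −0.23 and 0.15. The striatal markers Drd1, Ppp1r1b and Adora2a were also above background in both pools, as were the erythroid genes Hba-a1 and Alas2. Of the 5 choroid plexus markers, all were above background in NBH 1 week and 4 in control P14, Kcne2 being the exception. Of the 3 olfactory bulb markers, 2 were above background in both pools. In pooled tissue, more cells of a type and more RNA per cell cannot be told apart.

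Genes of the choroid plexus epithelium made up the largest changes. Of the 29 genes in this list, 27 were compared, and 14 were called higher and none lower, with a median log2 difference of 0.76 (0.69 with Cy3 and 0.83 with Cy5). Over all compared genes the median was 0.06 (0.01 and 0.10). The list was written with earlier results of these data known, and Ttr is a gene the study had already named.

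Ttr, which encodes the carrier of thyroid hormone and retinol that the choroid plexus secretes into the cerebrospinal fluid, had levels of 5.06 (Cy3) and 5.04 (Cy5) in NBH 1 week. In control P14 it stood at −1.70 and −1.79. The difference was 6.75 with Cy3 and 6.83 with Cy5, a 111-fold change. Both arrays of the operated pool lay above the 75th percentile and both arrays of the control below it.

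Folr1, the folate receptor that carries folate across this epithelium, had levels of −0.48 and −0.54 in NBH 1 week against −3.57 and −3.27 in control P14, a 7.49-fold difference. A second Folr1 probe was close to background in both pools and differed by 0.15. Ecrg4, the precursor of a secreted peptide, had levels of −0.12 and 0.30 against −2.45 and −2.53, 5.97-fold higher. Aqp1, the water channel of the apical membrane, was 3.43-fold higher, at −1.19 and −0.64 against −2.70 and −2.68. For each of these genes both arrays of the operated pool lay above both arrays of the control.

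Ion transport and signaling genes of this epithelium moved with them. Kcnj13, a potassium channel, was 2.83-fold higher, with differences of 1.49 and 1.51, and a second probe differed by 0.83. Kl, the co-receptor klotho, was 2.74-fold higher (1.52 and 1.39), and Sostdc1, a secreted antagonist of Wnt and BMP, 2.58-fold higher (1.48 and 1.25), with 1.11 at a second probe. Kcne2, a potassium channel subunit, was not well above background in control P14 and had levels of −2.88 and −2.02 in NBH 1 week, at least 5.13-fold higher. Otx2, the homeobox factor that this epithelium needs throughout life, had levels of −2.78 and −2.71 in NBH 1 week and was at least 4.03-fold higher. Calml4, a calmodulin-like gene, was at least 3.26-fold higher.

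Smaller differences of 1.70 to 1.87-fold were measured for Clic6, Steap1, F5 and Col8a1. The other 13 compared genes of the list were not called. Enpp2, which encodes autotaxin and is also expressed by oligodendrocytes, had bright levels in both pools and differences of 0.22 and 0.29. Trpv4 passed the limit with Cy3 alone (0.64 and 0.42), whereas Prlr (−0.12 and −0.82) and Slc16a8 (−0.35 and −0.16) were below 0 with both dyes. Cldn2 and Abca4 were not above background in either pool. The summed linear level of the 29 genes, in units of the 75th percentile of the array, was 79.4 and 79.8 in NBH 1 week and 38.4 and 37.1 in control P14, and without Ttr it was 46.2 and 47.0 against 38.1 and 36.8. Without Ttr, most of the sum in both pools came from brighter members that were not called.

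**Figure D2:**
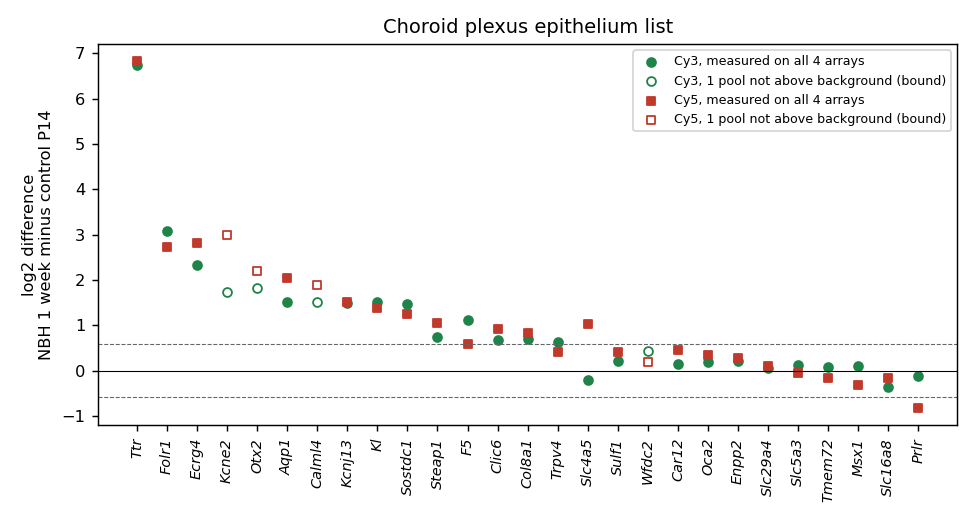
Log2 difference of the 27 compared choroid plexus genes between NBH 1 week and control P14, sorted by the mean of the dyes (circles Cy3, squares Cy5, open symbols bounds, dashed lines 1.5-fold). The 14 called genes lie above the upper line with both dyes, and Ttr, at 6.75 and 6.83, is followed by Folr1 at 3.09 and 2.72.

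The promoter of Otx2 is shown because OTX proteins bind the sequence TAATCC, read as GGATTA on the other strand, and Otx2 was among the called genes of this list. RefSeq gives 4 start sites for the gene, and the stretch below covers the 250 bases before 1 of them (chr14:48665110-48665359, GRCm38.p6, minus strand), with the match in capitals.
Otx2: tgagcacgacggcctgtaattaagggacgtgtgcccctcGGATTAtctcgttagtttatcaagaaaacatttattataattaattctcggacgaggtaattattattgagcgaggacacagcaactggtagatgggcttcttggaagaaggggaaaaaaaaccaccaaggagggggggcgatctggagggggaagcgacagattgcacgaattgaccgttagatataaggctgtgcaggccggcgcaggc
The motif occurs on either strand within 250 bases before a start site in 7.21% of 27025 genes. It was found in 2 of the 23 choroid plexus genes with a promoter sequence (8.70%), Otx2 and Abca4, and in 7 of the 106 genes called higher that had one (6.60%).

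The cilia of the ependyma, the cell layer that lines the ventricles next to the choroid plexus, gave a smaller median of 0.16 (0.03 and 0.34), and 1 of 21 compared genes, the axonemal dynein chain gene Dnali1, was called, at least 1.87-fold higher. Foxj1, the regulator of motile cilia, differed by 0.00 and 0.40, Rsph1 by 0.08 and 0.25 and Tmem212 by 0.52 and 0.63. The 28 compared genes of leptomeningeal fibroblasts held no called gene and had a median of 0.02 (0.00 and 0.15). Among the 5 meningeal markers, Dcn differed by −0.03 and Lum by 0.39 in the mean of the dyes. The summed level of the ependymal list was 25.02 and 25.41 in NBH 1 week against 29.78 and 28.31 in control P14. Most of this sum came from 1 bright gene that was not called, Spef2, at 4.05 and 3.99 against 4.44 and 4.36. The sum therefore does not describe the other genes of the list, whose median lay above 0.

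Among the lists of immune genes, few members were called, and these were mostly dim in control P14. Cxcl10, an interferon-induced chemokine that attracts T cells, had levels of −2.31 and −1.49 in NBH 1 week and was well above background on 1 of 2 arrays of control P14 (−4.56 and −4.06). It was called at least 5.30-fold higher. Ccl2, which recruits monocytes, was at least 2.69-fold higher, and Ccl5 was 1.60-fold higher (0.62 and 0.73). These were 3 of the 17 compared chemokines of the Ccl and Cxcl families (17.6%), in which no gene was lower, against 0.908% higher of all compared genes. Other dim families also had such shares, with 3 of 11 Hox genes (27.3%), 2 of 13 defensins (15.4%) and 3 of 26 keratins (11.5%) higher. These families were chosen after their values were seen.

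Of 29 interferon-stimulated genes 3 were called higher, with a median of 0.27 (0.13 and 0.32), and 17 were above 0 with both dyes against 32.0% of all compared genes. Besides Cxcl10 they were Rsad2, which encodes the antiviral protein viperin and was at least 2.28-fold higher, and Ifi44, at least 1.88-fold higher. Rsad2 had levels of −3.29 and −3.05 in NBH 1 week against −4.48 and −4.24 in control P14. Ifit1 differed by 2.28 with Cy3 and 0.52 with Cy5, which fell short of the limit. Other members had small differences, such as Isg15 (0.20 and 0.53), Oasl2 (0.41 and 0.42) and Irf7 (−0.17 and −0.34).

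The promoters of Cxcl10 and Rsad2 are shown because both hold the core of the interferon response element, GAAANNGAAA, which was searched on both strands. For Cxcl10 (chr5:92348890-92349139, minus strand) and Rsad2 (chr12:26456453-26456702, minus strand) the 250 bases before the start site are given from RefSeq, GRCm38.p6. Capitals mark that core and, in Cxcl10 alone, further downstream, a match to the NF-kB motif GGGANNTTCC.
Cxcl10: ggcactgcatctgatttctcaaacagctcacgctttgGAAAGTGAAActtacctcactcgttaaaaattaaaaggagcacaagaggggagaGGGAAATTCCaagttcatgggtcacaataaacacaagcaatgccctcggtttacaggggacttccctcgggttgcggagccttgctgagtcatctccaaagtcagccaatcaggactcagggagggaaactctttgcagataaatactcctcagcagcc
Rsad2: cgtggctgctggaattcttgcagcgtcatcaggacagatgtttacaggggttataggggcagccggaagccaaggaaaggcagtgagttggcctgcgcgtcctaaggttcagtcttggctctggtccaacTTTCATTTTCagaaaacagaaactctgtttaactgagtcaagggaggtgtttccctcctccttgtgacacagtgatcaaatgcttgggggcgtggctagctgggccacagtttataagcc
In Cxcl10 the core begins 213 bases and the NF-kB motif 159 bases before the start site, and in Rsad2 the core begins 120 bases before it and reads on the other strand. The core was present in 13 of the 22 interferon-stimulated genes with a promoter sequence (59.1%) and in 3.46% of all 27025 genes. Among the 106 genes called higher that had a promoter sequence it was found in 4 (3.77%), Cxcl10, Rsad2, Spp1 and Maats1. The NF-kB motif was found in 1.36% of all genes.

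Among 18 compared genes of activated phagocytes, 4 were called higher, with a median of 0.17 (0.11 and 0.29). The median was −0.02 without scaling between arrays, when the median of all genes was −0.13. Lgals3, which encodes galectin 3, was measured on all 4 arrays, at −2.03 and −1.67 against −3.12 and −2.79, and was 2.14-fold higher. Gpnmb, a glycoprotein of lipid-laden macrophages, was at least 3.46-fold higher, Spp1, which encodes osteopontin, at least 2.96-fold, and the inhibitory receptor Lilrb4a at least 2.22-fold. The lysosomal genes of this list were bright and were not called, such as Ctsd (0.21 and 0.27), Ctsb (−0.06 and 0.28) and Lpl (−0.15 and 0.04).

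The genes of resting microglia gave no call among 22 compared, with a median of 0.03 (−0.05 and 0.11). P2ry12 had levels of 1.86 and 2.14 in NBH 1 week and 1.99 and 1.96 in control P14, so the pools overlapped. Tmem119 differed by 0.03 and −0.25, and Cx3cr1 by −0.34 and 0.13. The summed level of this list was 80.6 and 91.0 against 85.1 and 84.0.

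Other immune genes were called singly. S100a9, a calcium-binding protein of neutrophils, was 2.68-fold higher, with levels of −2.34 and −2.05 against −3.57 and −3.66. Lcn2, which binds bacterial iron carriers and is released by reactive astrocytes and neutrophils, was 2.03-fold higher (1.28 and 0.76). C4b, a complement component, was one of the brighter called genes, with levels of 0.65 and 0.92 against −0.07 and −0.17, 1.88-fold higher. For C3, the central complement component, the probes disagreed. Its brighter probe differed by 0.64 and 0.28 and was not called, whereas a second probe differed by 2.03 and 2.28. Ciita, the switch of class II histocompatibility genes, was at least 2.84-fold higher and was the 1 called gene among the 20 compared genes of antigen presentation. Tlr2, a receptor for bacterial lipoproteins, was 1.59-fold higher, and Ccl5 was the higher gene among 12 compared lymphocyte genes, of which Cytip was at least 1.80-fold lower. Cd3e (−0.35 and −0.42) and Cd4 (−0.28 and −0.54), which mark T cells, were not called. The Cd3e probe was bright, at 1.07 and 0.84 against 1.42 and 1.26, whereas 10 of the 22 lymphocyte genes could not be compared. Whether this probe reads T cell RNA was not tested.

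Of the 20 compared genes of reactive astrocytes, Lcn2 and Cxcl10 were called, with a median of 0.10. The 24 genes of astrocyte identity gave no call and a median of −0.03 (−0.08 and 0.00). Aqp4, the water channel of astrocyte endfeet, differed by 0.00 in the mean of the dyes, and Aldh1l1 by 0.15. Btk, Isg20 and Lyz1 were also higher and were chosen for mention after their values were seen. Btk, a tyrosine kinase of B and myeloid cells, was 2.04-fold higher, Isg20, an interferon-induced exonuclease, 1.52-fold, and Lyz1, a lysozyme gene with a close copy in Lyz2 that its probe may not tell apart, 1.86-fold.

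Most red blood cell genes were above 0. Of 10 compared genes 7 were above 0 with both dyes, with a median of 0.21 (0.23 and 0.25). Hbb-bt, an adult beta globin gene, had levels of 4.99 and 5.19 in NBH 1 week against 4.41 and 4.30 in control P14 and was 1.67-fold higher. Its close copy Hbb-bs differed by 0.82 and 0.30, and the probes may not separate these genes. Hba-a1 differed by 0.38 and 0.12, and Alas2, which starts heme synthesis in red cell precursors, by 0.75 and 0.47, both outside the call.

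Immediate early genes, which neurons switch on when they are active, had differences below 0 more often than above. Of 29 compared genes 13 were below 0 with both dyes and 3 above, against 18.7% and 32.0% of all compared genes, and the median was −0.10 (−0.18 and −0.07). Egr2, a zinc finger factor of this class, was the called gene, with levels of 0.01 and 0.35 in NBH 1 week against 1.21 and 1.19 in control P14, 2.02-fold lower. Fos differed by −0.75 and −0.50, Fosb by −0.53 and −0.73, Nr4a1 by −0.70 and −0.40 and Arc by −0.47 and −0.61, each past the limit with 1 dye. Egr4 differed by −0.47 and −0.34. Bdnf (−0.17 and 0.04), Homer1 (−0.04 and 0.26) and Npas4 (0.04 and 0.23) did not share this direction with both dyes.

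The promoter of Egr2 is shown because it was the called gene of this list and because the CArG box, the site of serum response factor, lies in it. The stretch covers the 250 bases before 1 of its 5 start sites in RefSeq (chr10:67537619-67537868, GRCm38.p6, plus strand), with the box in capitals.
Egr2: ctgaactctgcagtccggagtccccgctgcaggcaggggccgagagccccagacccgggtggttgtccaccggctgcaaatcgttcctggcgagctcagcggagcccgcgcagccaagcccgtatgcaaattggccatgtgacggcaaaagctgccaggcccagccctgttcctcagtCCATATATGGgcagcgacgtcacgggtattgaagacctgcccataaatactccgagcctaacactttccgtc
The box begins 72 bases before this start site. It was found in 1.62% of all genes, in 1 of the 23 immediate early genes with a promoter sequence and in 1 of the 56 genes called lower that had one, in both cases Egr2.

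Genes of striatal medium spiny neurons had the lowest median of the 51 lists. Of 24 compared genes 20 were below 0 with both dyes and none above, and the median was −0.33 (−0.38 and −0.31), while 1 gene was called. That gene was Syndig1l, a synaptic membrane protein enriched in the striatum, with levels of 1.51 and 1.32 against 2.10 and 2.03, 1.57-fold lower. Pde10a, a phosphodiesterase of these neurons, differed by −0.38 and −0.63, and Scn4b, a sodium channel subunit, by −0.50 and −0.49. Drd1, the D1 dopamine receptor, had levels of 0.43 and 0.23 against 0.84 and 0.83. Drd2, the D2 receptor, was dim and split between the dyes (0.39 and −0.31). Penk (−0.48 and −0.02) and Tac1 (−0.27 and 0.07), which encode striatal neuropeptides, differed little with Cy5.

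**Figure D3:**
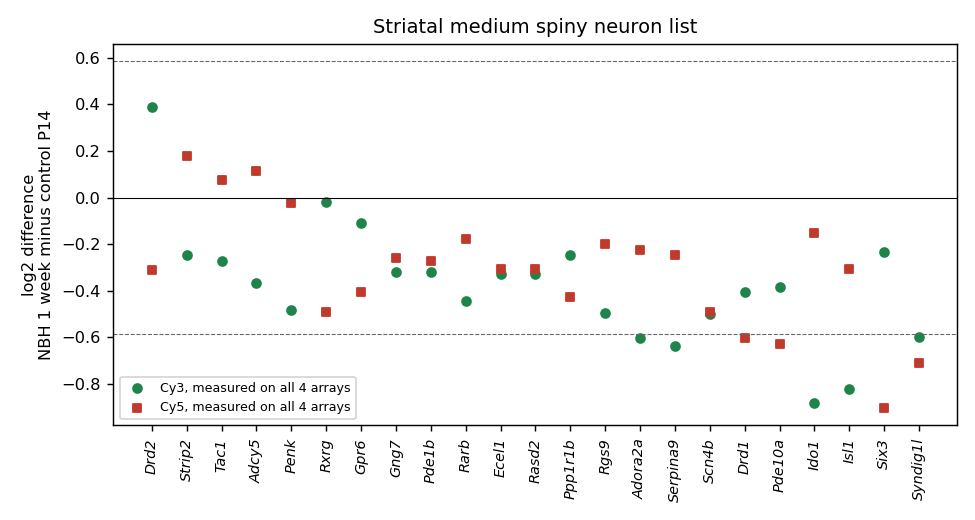
Log2 difference of 23 of the 24 compared striatal genes between NBH 1 week and control P14, sorted by the mean of the dyes (circles Cy3, squares Cy5, dashed lines 1.5-fold). Most pairs of points lie between the lower line and 0, and Syndig1l is the gene with both points under the line.

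The summed level of the striatal list was 241.3 and 242.4 in NBH 1 week against 309.7 and 286.8 in control P14. The summed level of the 30 cortical excitatory genes was 190.2 and 202.7 against 191.6 and 189.7. How much striatum each dissected piece contained was not measured, and its part in these values was not tested. Lhx8, a homeobox factor of basal forebrain cholinergic neurons, was 2.00-fold lower, at −2.81 and −2.34 against −1.63 and −1.51. The cholinergic genes Chat (−0.46 and −0.14), Slc18a3 (−0.30 and −0.44) and Slc5a7 (−0.58 and −0.18) were below 0 with both dyes and were chosen for mention after their values were seen. The list of deep forebrain genes that holds Lhx8 had a median of 0.15 (0.12 and 0.00). Of its 28 compared genes 4 were called higher and 1 lower, and 10 were above and 7 below 0 with both dyes. In this list Zic2 was 2.23-fold higher (0.63 and 1.68) and Agrp 2.10-fold (1.31 and 0.83). Lhx9 was at least 2.11-fold and Avp at least 1.54-fold higher, and of these Zic2 alone was outside the dimmest group in control P14.

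Lists of cortical neurons and synapses held few calls. None of 30 cortical excitatory neuron genes, 29 glutamate receptor genes or 22 genes of GABA receptors and chloride transporters was called, with medians of 0.00, 0.06 and 0.03. Cacna1c, a calcium channel gene, was at least 2.57-fold higher among 42 voltage-gated channel genes, Shank2, a postsynaptic scaffold, 1.63-fold higher among 36 synaptic genes and Nos1, the neuronal nitric oxide synthase, 1.68-fold higher among 23 interneuron genes. All of them belonged to the dimmest group of genes in control P14.

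Lists of growth and repair genes had medians close to the median of all genes. None of 57 axon guidance genes was called (median 0.10), and among 37 genes of axon growth and its inhibitors the called gene was Lingo1, a part of the receptor for myelin inhibitors, with levels of 0.76 and 0.50 against 1.42 and 1.79, 1.97-fold lower. Its partner Rtn4r differed by 0.12 and 0.04, and the growth-associated genes Klf7 (0.09 and 0.37) and Sprr1a (−0.31 and −0.51) were not called. Among 56 growth factor genes Gdnf, a survival factor of dopamine and motor neurons, was called, 1.72-fold lower (−0.82 and −0.75), and its receptor gene Gfra1 differed by −0.25 and −0.45. Bdnf and Ntf3 (−0.06 and 0.08) were not called.

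In the Hedgehog list Ihh, a ligand, was at least 1.86-fold higher among 23 compared genes, of which 7 were above and 8 below 0 with both dyes (median 0.08). Shh (−0.13 and −0.36), the signal transducer gene Smo (−0.24 and −0.61) and the effectors Gli2 (−0.57 and −1.02) and Gli3 (−0.19 and −0.20) were below 0 with both dyes without a call. Gli1 (−1.02 and 0.28) and Ptch1 (0.50 and −0.004) did not share this direction with both dyes. None of the 49 Wnt and 25 Notch genes was called. In the cell cycle list Ndc80, a kinetochore gene, was at least 2.68-fold higher among 37, with a list median of 0.11. The 26 genes of neurogenesis and immature neurons had a median of 0.13 (0.02 and 0.14) and no call, and Dcx, a microtubule protein of migrating neurons, differed by 0.17 and 0.00. Myelin genes (29 compared, median 0.01) and genes of oligodendrocyte precursors (23 compared, median −0.07) held no call.

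**Figure D4:**
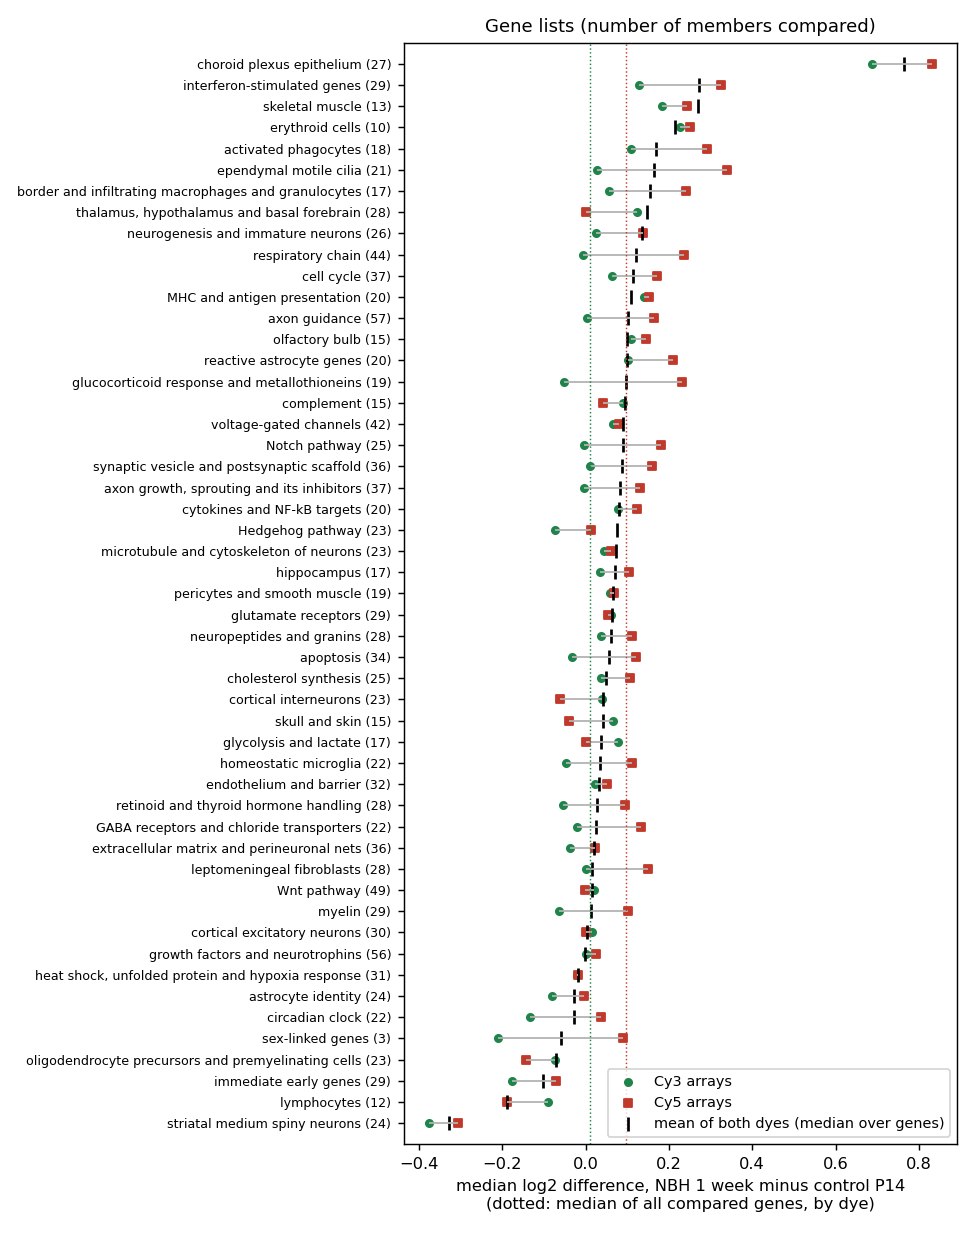
Median log2 difference of each gene list between NBH 1 week and control P14, with the number of compared members in brackets (green circles Cy3, red squares Cy5, black bars the median over genes of the mean of both dyes). The dotted lines mark the medians of all compared genes, 0.01 with Cy3 and 0.10 with Cy5. The choroid plexus list at the top and the striatal list at the bottom lie apart from the rest.

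Over all compared genes, list members included, 20 of the lower genes and 9 of the higher genes were brighter than this dimmest group in control P14, and those not yet named were chosen for mention for that reason, after their values were seen. Slc1a4, a transporter of serine and other neutral amino acids, had levels of −0.08 and 0.61 in NBH 1 week against 0.90 and 1.40 in control P14, 1.85-fold lower. Marchf1, a ubiquitin ligase, was the brightest lower gene, at 4.34 and 4.48 against 5.01 and 5.31, 1.69-fold lower, although a second probe differed by 0.27. Knstrn, a gene of the mitotic spindle, was 1.56-fold lower at bright levels of 3.68 and 4.13, and its second probe differed by 0.23. Tacr1, the receptor of substance P, was 1.70-fold lower, Rem2, a small GTPase that neuronal activity induces, 1.60-fold, and Sntb2, a syntrophin, 1.84-fold. The same group included Sh3rf2, Slc51b, Slc26a10, Cyp4a31, Xntrpc and Cilk1, which were 1.56 to 1.75-fold lower. A second probe differed by 0.10 for Cilk1 and by −0.09 for Xntrpc.

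The largest differences of the lower genes were less even between dyes or probes. Gtpbp10, a GTP-binding protein, differed by −2.25 and −1.46 at its bright probe and by 2.07 and −0.19 at a dim second probe. Averaged over the dyes, the bright probe read high for control P14 (2.25) and NBH 4 weeks (2.10). Every other pool, NBH 1 week (0.39) among them, lay between 0.23 (control P7) and 0.71 (control 10 weeks). Why control P14 and NBH 4 weeks stood apart was not tested. Gucy1a2, a subunit of the nitric oxide receptor, differed by −0.61 and −2.58 and by −0.10 at a second probe, and Csk, a kinase that holds Src in check, by −0.63 and −2.32. The uncharacterized Gm3985 fell more evenly than these, by 2.08 with Cy3 and 1.87 with Cy5 on the log2 scale. Its mean level in control P14 (−2.32) was the highest of all pools. That of NBH 1 week (−4.30) lay between control P7 (−4.84) and control P35 (−3.64). The uncharacterized 2610318N02Rik was 3.90-fold higher (1.58 and 2.34) at 1 probe, whereas its other 3 probes differed by −0.54 to 0.05.

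The remaining genes with the largest measured differences were mostly dim. On the higher side Defb11, a defensin, was 3.59-fold higher, Gse1 2.80-fold and Fam166b 2.64-fold. On the lower side the vomeronasal receptor gene Vmn1r87 was the exception, at −0.20 and −0.38 against 1.48 and 0.25, 2.22-fold lower. The olfactory receptor genes Olfr332 and Olfr122, Klra16, Ces2b and the caspase gene Casp14 were 1.97 to 2.52-fold lower. The largest remaining bounds were those of Krt18 and Lat, at least 3.67-fold and 3.47-fold higher, and of Krtap15, Hoxb3, Pla2g4d, Plet1, Taar4 and Defb45, at least 2.21 to 2.92-fold lower. Sensory receptor genes, which are not known for a role in the cortex, could be compared for 17.6% of 1070 olfactory receptors and 17.2% of 256 vomeronasal receptors. Of the 188 compared olfactory receptors 6 were higher and 11 lower, and of the 44 compared vomeronasal receptors none was higher and 4 were lower. Over all compared genes 0.908% were higher and 0.438% lower, and the 3825 dimmest held 130 higher and 47 lower genes. Both families were chosen after their values were seen and had median levels of −3.71 and −3.59 in control P14.

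The genes that change with age in the unoperated cortex were examined next, since P7 to P35 is a phase of rapid cortical maturation. Sets were taken from the control pools at P7 and P35, whose arrays do not enter the comparison. The 1043 measured genes that were at least 2-fold lower at P35 than at P7 had a median difference of 0.11 in NBH 1 week (0.02 with Cy3 and 0.20 with Cy5), with 8 higher and 1 lower, and its median was −0.08 without scaling between arrays, when the median of all genes was −0.13. The 948 genes that were at least 2-fold higher at P35 had a median of 0.00 (−0.02 and −0.02), with 3 higher and 13 lower. Over all 14573 measured genes the median was 0.05 (0.00 and 0.09), with 58 higher (0.398%) and 48 lower (0.329%). Of the genes falling with age 40.8% were above 0 with both dyes, against 23.6% of the genes rising with age and 30.8% of all measured genes. The lower genes that rise with age included Egr2, Marchf1, Sntb2, Selp and Syndig1l, and the higher genes that fall with age included Ttr, Aqp1, Sostdc1, Col8a1 and Zic2.

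The other operated pools of the series show which of these genes differed there too. Their comparisons use other arrays, although with the same layout of the chips. The shares of these genes are taken of all 139 or 67, also where some could not be compared, whereas the background shares count compared genes alone. In NBH 4 weeks 105 of the 139 higher and 62 of the 67 lower genes could be compared. In NBH 4 weeks against control P35, 15 of the 139 higher genes were higher (10.8% of these genes and 22.4% of the 67 higher genes there), where 0.427% of all compared genes were. They included Ttr, Folr1, Ecrg4, Kcne2, Kl, Sostdc1, F5, Gpnmb, Btk, Krt18 and Hbb-bt. Of the 67 lower genes 8 were lower again (11.9% of these genes and 4.82% of the 166 lower genes there, with a background of 1.06%), namely Gabpb2, Lhx8, Olfr122, Rem2, Sh3rf2, Syndig1l, Tacr1 and Vmn1r87. Lhx8 had a log2 difference of −2.22 there, Tacr1 of −1.10 and Rem2 of −0.97. In contrast, Cxcl10 was not above background on both arrays of either pool at 4 weeks, and Lcn2 (0.21), C4b (−0.03), Slc1a4 (0.23) and Lingo1 (0.09) were not called.

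In ABH (adult brain hemisuction) 1 week against control 10 weeks, 29 of the 139 higher genes were higher (20.9% of these and 3.11% of the 933 higher genes there, with a background of 5.78%), among them Cxcl10, Ccl2, Ccl5, Gpnmb, Spp1, Lgals3, Lcn2, C4b, S100a9, Rsad2 and Ifi44. Of the 67 lower genes 24 were lower there too (35.8% of these and 2.32% of the 1035 lower genes there, with a background of 6.41%), 12 of them olfactory or vomeronasal receptor genes. By their stated ages, the mice of both ABH pools were older than control 10 weeks, whereas each NBH pool had the age of its control. The ABH comparisons are therefore not matched for age, and the part of age in their differences was not tested. Of the 139 higher genes 112 could be compared in ABH 1 week, and of the 67 lower genes 65. C4b had a log2 difference of 3.13 there, against 0.91 in NBH 1 week, and Lyz1 of 5.67 against 0.90. Of the 29 interferon-stimulated genes 26 were higher in ABH 1 week and 3 in NBH 1 week, and the median of resting microglia genes was 0.70 against 0.03. Of 24 compared choroid plexus genes 5 were higher and 3 lower in ABH 1 week, with a median of 0.01. Ecrg4 (2.30) and Aqp1 (2.10) were among the higher and Sostdc1 (−0.73) among the lower, while Ttr (−0.14) and Folr1 (0.20) were not called. Egr2 fell by 1.03 with Cy3 and 1.04 with Cy5 in ABH 1 week. In ABH 4 weeks, which shares its control with ABH 1 week, 25 of the 139 higher genes were higher (18.0% of these and 19.2% of the 130 higher genes there, with a background of 0.806%), 12 of them choroid plexus genes. Of the 67 lower genes 1, Casp14, was lower in ABH 4 weeks (1.49% of these and 2.44% of the 41 lower genes there, with a background of 0.254%), and Gdnf, Sh3rf2 and Tacr1 were called higher there. In ABH 4 weeks 113 of the 139 higher and 64 of the 67 lower genes could be compared. The striatal list held 15 lower genes of 24 in NBH 4 weeks and 13 higher genes of 24 in ABH 4 weeks, with medians of −0.65 and 0.74.

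**Figure D5:**
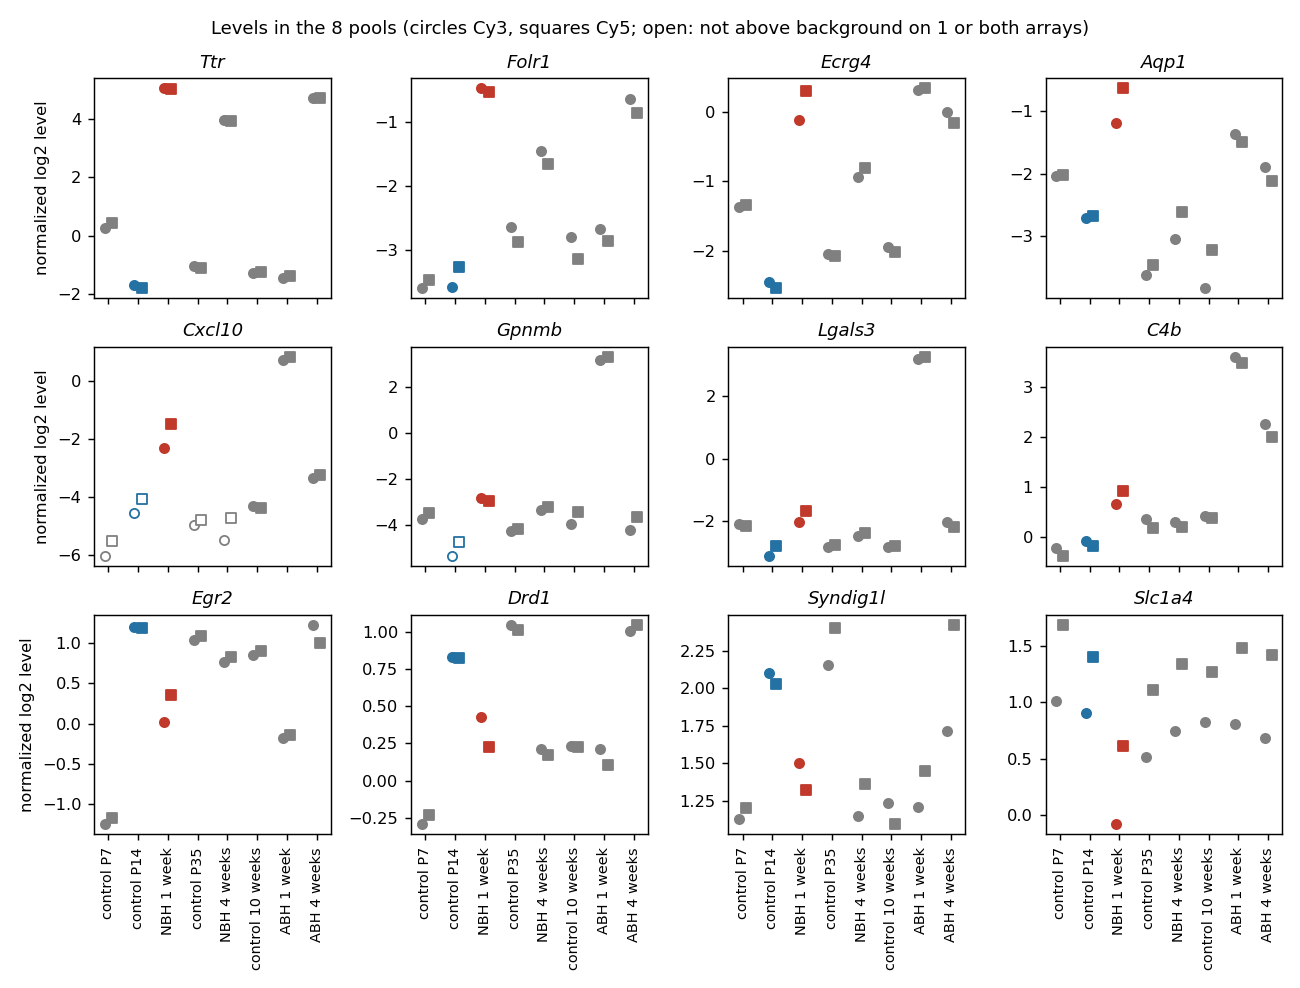
Normalized log2 levels of 12 genes in the 8 pools (circles Cy3, squares Cy5), with NBH 1 week in red, control P14 in blue, the other pools in gray and open symbols where a pool was not above background on 1 or both arrays. Ttr is high in all operated pools other than ABH 1 week, Cxcl10, Gpnmb, Lgals3 and C4b are highest in ABH 1 week, and Slc1a4 is lowest in NBH 1 week.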

How the data were processed

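The 4 arrays are 1 RNA pool per group, each labeled with Cy3 and with Cy5 and hybridized alone on Agilent mouse 8x60K slides. The authors extracted the deposited spot intensity values with Agilent Feature Extraction 11.0.1.1, which subtracted background and normalized dyes. From these, the processed intensity of the labeled channel of 59305 gene spots was floored at 1 and transformed to log2. Outlier spots were left out, the 75th percentile of the array was subtracted, and the spots of a probe were then averaged. The brightest probe stood for each gene, unless saturated. A gene was compared within each dye if both arrays of 1 or both pools had it well above background. The genes named were the 12 largest measured differences and the 6 largest bounds in each direction, the called members and the first 3 members of each list, and others chosen after their values were seen. The members and lists were chosen with earlier results of these data known. Alternatives covered background, scaling, probe, filter and limit. The calls were tested on simulated data. Python 3.11.15, numpy 2.4.6, pandas 2.3.3, R 4.3.3 and limma 3.58.1 (normexp) were used. Precision is limited by the number of pools, which is 1 a group. Some genes are not reported here.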

Additional observations from a re-analysis of the deposited data

Results flagged for a closer look

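Genes called in NBH 1 week and called the opposite way in another operated pool are given with their mean log2 difference there, and none of these differences between comparisons was tested. In NBH 4 weeks against control P35, Avp, higher in NBH 1 week, was lower (−2.55), and Gtpbp10, lower in NBH 1 week, was higher (1.47). The pools with high mean Gtpbp10 levels were control P14 (2.25) and NBH 4 weeks (2.10), whereas NBH 1 week (0.39) lay near control P35 (0.63). In ABH 1 week against control 10 weeks, 7 genes that were higher in NBH 1 week were lower. They were Car5a (−0.61), Cftr (−1.09), D730005E14Rik (−0.72), Lhx9 (−1.03), Otop1 (−0.71), Sostdc1 (−0.73) and Src (−0.76). Cytip, lower in NBH 1 week, was higher there (1.05). Both ABH pools were older than control 10 weeks. In ABH 4 weeks against control 10 weeks, Ffar2, higher in NBH 1 week, was lower (−0.94), and Gdnf (1.40), Sh3rf2 (0.92) and Tacr1 (0.67), lower in NBH 1 week, were higher. In NBH 1 week, Avp, D730005E14Rik, Lhx9, Otop1, Ffar2 and Cytip were bounds, above background in 1 pool alone.

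The channel that carried no dye gave some signal. On the Cy3 array of NBH 1 week 1.11% of spots were well above background in the unlabeled channel, compared with 0.958% on the Cy3 array of control P14. On the Cy5 arrays the order was the other way, with 1.14% in NBH 1 week and 1.17% in control P14.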

How the results depend on the processing

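With 139 genes higher and 67 lower as reported, normexp on the median signal gave 62 and 16, no scaling between arrays 67 and 180, quantile normalization 117 and 108, no filter on dim probes 1090 and 403, genes above background on all 4 arrays 58 and 48, 2-fold limits 37 and 9, the 1.5-fold and 0.75-fold limits 139 and 176, and probes in place of genes 514 and 290. With a single dye the higher genes ranged from 424 to 610 and the lower genes from 220 to 497. The lower genes made up 32.5% of the calls, 20.5% with normexp, 48.0% with quantile normalization and 72.9% without scaling. The causes of these shifts were not tested, apart from the settings that change the number of genes or the limit by construction. Of 88 named calls none changed direction, while 43 were lost with normexp, 55 with 2-fold limits and 20 without scaling. The list medians ranged over 12 settings from 0.51 to 0.83 for the choroid plexus, 0.09 to 0.32 for interferon-stimulated genes, −0.29 to −0.06 for immediate early genes and −0.51 to −0.31 for the striatum. Over the same settings the median of all compared genes ranged from −0.13 to 0.10, with the lowest value without scaling between arrays. No paired analysis was possible because each group is 1 pool and the dyes repeat the same RNA. With 1 pool a group, the spread between animals is unknown, and signal over background limits the dimmest genes, which held most calls.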
